A study of Mus musculus with 1 sample.

Results

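This report covers 9 mouse genes of glutamate uptake and glutamine cycling, chosen by gene symbol for their role and not by a cut on any measured value. The choice was made with earlier results of these data known. The genes were the transporter genes Slc1a1, Slc1a2, Slc1a3, Slc1a4 and Slc1a5, the enzyme genes Glul and Glud1, and the glutamine transporter genes Slc38a3 and Slc38a5. Each symbol matched 1 of the 23282 rows of the table. The cells were primary mixed glia from the ventral midbrain (VM) of outbred ICR(CD-1) mouse pups at postnatal day 5. The study examined inhibition of the kinase SGK1 in such VM-glia. The 1 RNA-seq library analysed here was the control, which the study describes as treated with the vehicle DMSO. The labels mention toxins given with the inhibitor and do not say whether the control received them. Libraries of inhibitor-treated cells were not analysed here, so levels within this library are described and no contrast between groups was made. No genetic change was stated for the mice, and the number of pups behind the library was not given in the sources used here.

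The values were read counts per gene that the authors called normalised, and they summed to 27569507. The number of sequenced reads is unknown, and with 1 library there is no replicate spread, so no error, interval or test stands beside any value. A gene was counted as detected at a value of 10 or more. Levels of different genes were compared per length, and undivided values, which favour long transcripts, are named as values where they are given. The per-length level is the value divided by the kilobases of annotated exon (the union of all exons of the gene) and by the sum of all values, times 1000000. Among detected genes the median per-length level was 3.72.

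Glutamate is the main excitatory transmitter of the brain and is toxic to neurons when it accumulates outside cells. Astrocytes take it up through sodium-coupled transporters of the SLC1 family, turn it into glutamine with glutamine synthetase, and release the glutamine through SLC38 transporters. Neurons take the glutamine up and convert it back to glutamate, which closes the glutamate-glutamine cycle. Glutamate that enters the mitochondria of astrocytes can also be oxidised through glutamate dehydrogenase.

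Glul and Glud1 had far higher levels in the control glia than the 7 transporter members. Glul and Glud1 had per-length levels of 73.3 and 69.2, and the next member, Slc1a3, was at 7.86. Slc38a3 followed at 5.84, Slc1a2 at 5.15, Slc1a4 at 3.98 and Slc1a5 at 1.85. Slc1a1 at 0.176 and Slc38a5 at 0.0324 were lowest. Together the members had a value of 20001, or 725.5 per 1000000 of the sum, of which Glul and Glud1 held 73.8%, the 5 SLC1 genes 22.0% and the Slc38 genes 4.26%. On the per-length scale the enzymes held 85.1%.

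Of the 9 members, 8 had a value of 10 or more, against 67.2% of all rows. A value of 1000 or more was reached by 4 of them (Glud1, Glul, Slc1a2 and Slc1a3), against 21.5% of all rows. The median per-length level of the members was 5.15, above 57.4% of detected genes, and 6 of the 9 lay above the median of detected genes. That median was taken over detected genes only, so a smaller part of all rows lay above it. Slc1a4 was among these 6 by exon union (above 51.7%), but was below the median by coding length (above 44.9%) and undivided (above 48.3%). By longest transcript Slc1a4 ranked below Slc1a2, which stood above 50.8% of detected genes on that scale. The group was spread over nearly the full range of expression, with the enzymes near its top and 2 members near its bottom.

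**Figure D1:**
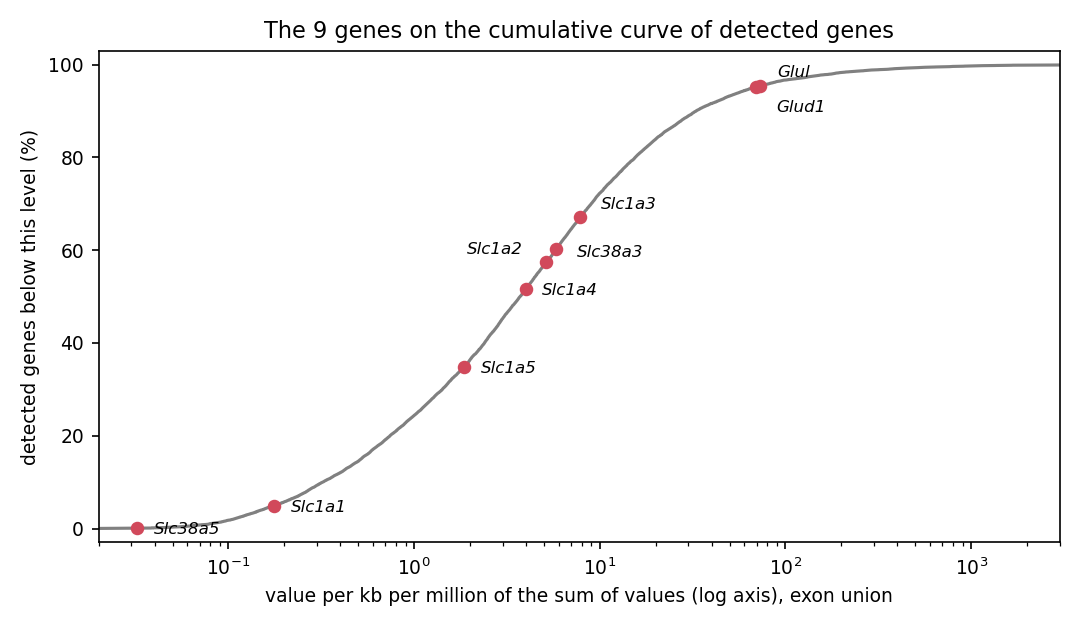
The x axis gives the per-length level (value per kilobase of exon union per 1000000 of the sum, log axis) and the y axis the percentage of detected genes below it, with the 9 genes as red points on the grey curve of 15478 detected genes. Glul and Glud1 sit above 95% of detected genes, 4 genes from Slc1a4 to Slc1a3 sit between 51.7% and 67.1%, Slc1a5 sits at 34.8%, and Slc1a1 and Slc38a5 are at the foot of the curve.

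Within the SLC1 family the members fall into transporters of glutamate (Slc1a1, Slc1a2, Slc1a3) and transporters of neutral amino acids (Slc1a4, Slc1a5). The coding sequences show this division. Slc1a4 and Slc1a5 shared 67.9% of their aligned coding bases, and each shared 59.6% to 61.7% with the 3 glutamate transporter genes. Among these 3, Slc1a1 and Slc1a3 were closest at 67.4%, Slc1a2 and Slc1a3 shared 65.3%, and Slc1a1 and Slc1a2 shared 62.4%. Over the whole family the division was not complete. Slc1a5 shared 63.3% with Slc1a7, a glutamate transporter gene outside the members, which was above the 62.4% of Slc1a1 and Slc1a2. Slc38a3 and Slc38a5 shared 67.3%. No pair of members shared a stretch of 100 bases or more at 90% identity or above.

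**Figure D2:**
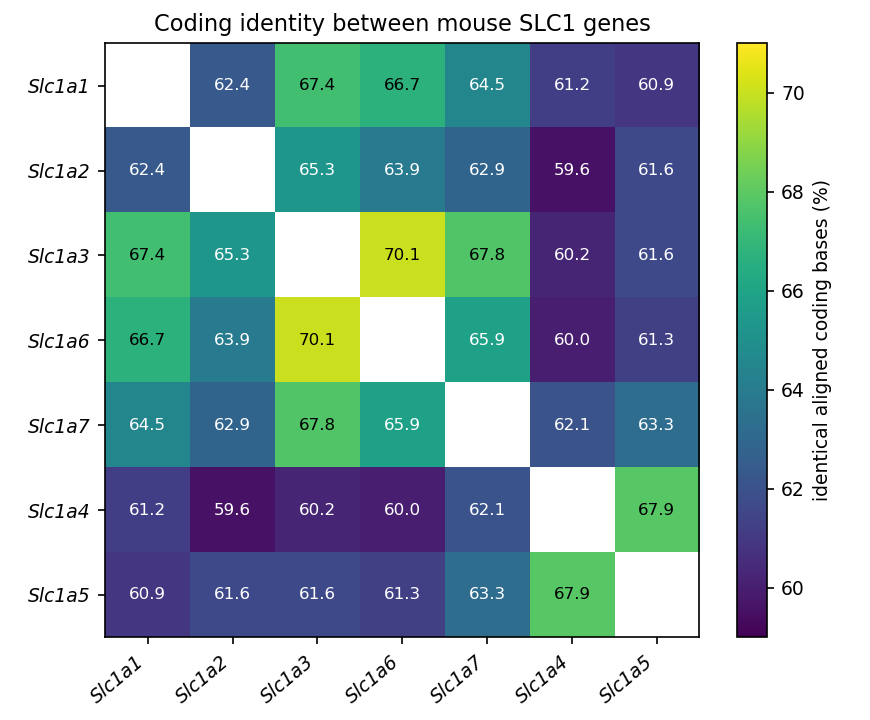
Each cell gives the percentage of identical bases over the aligned coding sequences of 2 mouse SLC1 genes, and the colour scale runs from 59% to 71%. Slc1a4 and Slc1a5 are at 67.9% with each other and at 59.6% to 63.3% with the 5 glutamate transporter genes, and the highest pair is Slc1a3 and Slc1a6 at 70.1%.

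The following stretches are shown because they hold the codon by which the 2 subfamilies differ at the substrate site. In glutamate transporters an arginine in the last membrane-spanning segment holds the side chain of the substrate, and the neutral amino acid transporters have another residue there. Each stretch has 33 bases of the coding strand from GENCODE M21, with this codon in capitals. It is an arginine codon in Slc1a1, Slc1a2 and Slc1a3, a threonine codon in Slc1a4 and a cysteine codon in Slc1a5.

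Slc1a1: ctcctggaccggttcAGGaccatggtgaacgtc
Slc1a2: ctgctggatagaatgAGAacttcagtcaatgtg
Slc1a3: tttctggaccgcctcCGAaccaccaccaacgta
Slc1a4: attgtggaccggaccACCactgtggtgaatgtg
Slc1a5: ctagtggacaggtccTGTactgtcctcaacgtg

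In all 5 genes an exon boundary lies after base 5 of the stretch, and the codon is in the 28 bases of the second exon. On GRCm38 those 28 bases are chr19:28911654-28911681 for Slc1a1 (plus strand, exon 12 of 12) and chr2:102777427-102777454 for Slc1a2 (plus strand, exon 10 of 11). For Slc1a3 they are chr15:8636312-8636339 (minus strand, exon 10 of 10) and for Slc1a4 chr11:20304473-20304500 (minus strand, exon 8 of 8). For Slc1a5 they are chr7:16797502-16797529 (plus strand, exon 9 of 9).

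Slc1a2 and Slc1a3, which encode the astrocytic transporters GLT-1 and GLAST, are the transporters the study followed under SGK1 inhibition. In the control library Slc1a2 had a value of 1866 (67.7 per 1000000) and Slc1a3 a value of 1850 (67.1 per 1000000). Together they made up 84.5% of the summed value of the 5 SLC1 members, and 68.4% of their summed per-length levels by exon union. Which of them was higher depended on the length used. By exon union, Slc1a3 was 1.52 times as high as Slc1a2 (7.86 against 5.15), and by the longest coding transcript it was 2.76 times as high (16.1 against 5.84). By coding length the ratio was 1.04 (41.2 against 39.4), and without division it was 0.991. The coding sequences were similar in length, 1716 bases for Slc1a2 and 1629 for Slc1a3, but the longest transcript of Slc1a2 carried a 3' untranslated region of 9253 of its 11595 bases, against 2011 of 4163 for Slc1a3. The value of Slc1a2 therefore stood above 81.7% of detected genes undivided, 74.9% by coding length, 57.4% by exon union and 50.8% by longest transcript.

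Slc1a2 lies at chr2:102658659-102790784 on the plus strand and Slc1a3 at chr15:8634124-8710764 on the minus strand of GRCm38. The exons of Slc1a3 overlapped no other annotated gene. Those of Slc1a2 overlapped 189 bases of the antisense gene Gm13872 on the other strand. Since the strand setting of the counting was not stated, reads from such overlaps cannot be told apart.

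Slc1a1 encodes EAAC1, a glutamate transporter known mainly from neurons. Its value was 40, and its per-length level of 0.176 was above 4.96% of detected genes. Neither Slc1a2 nor Slc1a3 was near this level. On GRCm38 Slc1a1 lies at chr19:28835049-28913960 on the plus strand, and 2631 of its 8257 exon bases overlap exons of 4430402I18Rik on the other strand. That gene had a value of 93, and since reads from the overlap cannot be told apart, the small value of Slc1a1 is uncertain.

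The remaining glutamate transporters of the family, outside the 9 members, are Slc1a6 (EAAT4, known from Purkinje cells) and Slc1a7 (EAAT5, known from retina). Their values of 7 and 5 were under the detection minimum.

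Slc1a4 and Slc1a5 encode ASCT1 and ASCT2, which exchange neutral amino acids such as serine, alanine and, for ASCT2, glutamine. Slc1a4 had a value of 431 and a per-length level of 3.98, above 51.7% of detected genes. Slc1a5 had a value of 213 and a per-length level of 1.85, above 34.8%. Slc1a4 was 2.15 times as high as Slc1a5 by exon union, 1.43 times by longest transcript and 2.11 times by coding length, so their order was the same under each length. Both had no exon overlap with another gene. Slc1a4 lies at chr11:20302180-20332713 on the minus strand and Slc1a5 at chr7:16781340-16798274 on the plus strand. Slc1a2 was 1.29 times as high as Slc1a4 by exon union and 4.03 times as high by coding length.

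Glul encodes glutamine synthetase, which joins ammonia to glutamate and is a classical astrocyte enzyme. Its value was 6714 (243.5 per 1000000), and its per-length level of 73.3 was above 95.5% of detected genes. Glud1 encodes the mitochondrial glutamate dehydrogenase, which turns glutamate into 2-oxoglutarate. Its value of 8036 (291.5 per 1000000) was the highest undivided value of the members, and its per-length level of 69.2 was above 95.2%. Per length the enzymes were close, with a Glul to Glud1 ratio of 1.06 by exon union, 1.01 by longest transcript and 1.25 by coding length, and without division Glud1 was the higher one (ratio 0.836). With no replicate, their order is not resolved.

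Glul was 9.32 times as high as Slc1a3 and 14.2 times as high as Slc1a2 by exon union. By coding length these ratios were 5.28 and 5.52. The enzyme of glutamine synthesis was therefore above the transporters that supply its substrate under each length used.

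Glul lies at chr1:153899944-153909723 and Glud1 at chr14:34310727-34345265, both on the plus strand. Both have processed pseudogenes that can share reads with them. The Glul transcript matched Glns-ps1 at 96.8% over 1126 bases and AC134576.3 at 93.0% over 1122 bases, and Glud1 matched Glud-ps at 97.6% over 656 bases. No value was found under the symbols of these pseudogenes, and how reads with several matches were counted was not stated. Exons of Glul also overlapped 116 bases of Teddm2 on the other strand, which had a value of 1, and a microRNA gene on the same strand.

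Slc38a3 and Slc38a5 encode the system N transporters SNAT3 and SNAT5, which release glutamine from glia. Slc38a3 had a value of 849 (30.8 per 1000000) and a per-length level of 5.84, above 60.3% of detected genes. It lies at chr9:107650634-107669530 on the minus strand. Slc38a5, at chrX:8271133-8280179 on the plus strand, had a value of 2 and was the one member under the detection minimum. Nearly all of the summed value of 851 for this pair came from Slc38a3. Against Slc1a3 it was lower under each length, with Slc1a3 1.35 times as high by exon union and 2.03 times by coding length. Against Slc1a2 the order turned with the length, since Slc1a2 was at 0.883 times Slc38a3 by exon union and at 1.94 times by coding length.

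**Figure D3:**
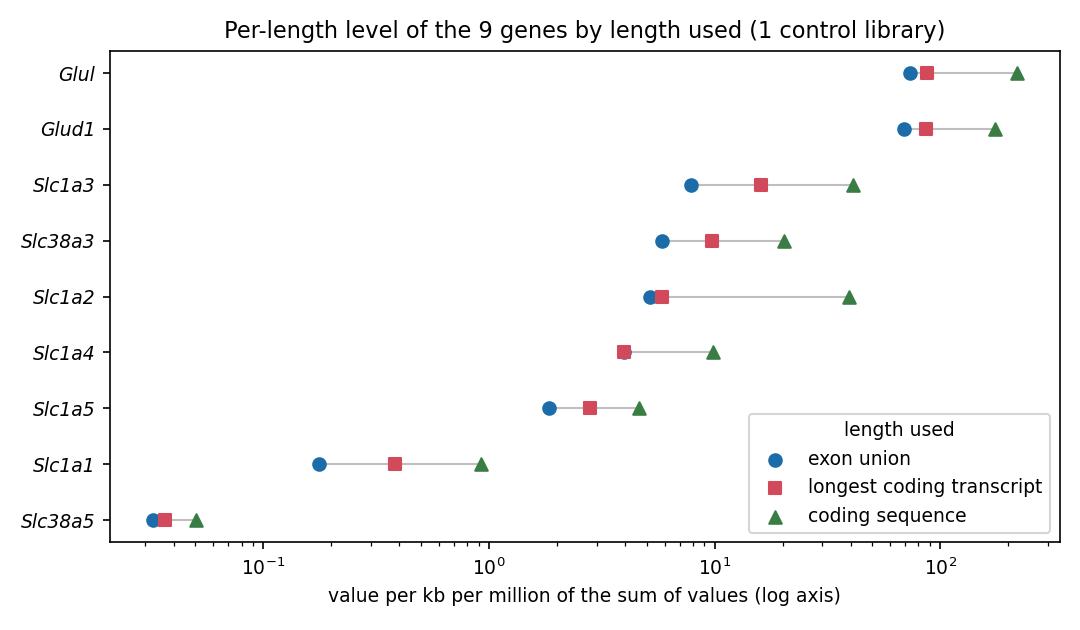
The x axis gives the value per kilobase per 1000000 of the sum (log axis) for the 9 genes, with length taken as exon union (circles), longest coding transcript (squares) or coding sequence (triangles). The enzymes Glul and Glud1 stay above all other members, Slc1a1 and Slc38a5 stay lowest, and Slc1a2 moves most, from 5.15 by exon union to 39.4 by coding length.

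Across the 3 lengths, 7 members kept their place in the order, with Glul, Glud1 and Slc1a3 at ranks 1, 2 and 3 and Slc1a4, Slc1a5, Slc1a1 and Slc38a5 at ranks 6 to 9. Slc1a2 and Slc38a3 exchanged ranks 4 and 5, with Slc1a2 ahead by coding length. Without division by length, Glud1 and Glul and also Slc1a2 and Slc1a3 exchanged places.

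Promoter windows of RefSeq (GRCm38.p6, 250 bases before to 50 after a transcription start) were found for 7 of the 9 members. They differed widely in base composition. The windows of Slc1a2 and Slc1a3 held 1 and 3 CpG dinucleotides, while the median of all 32851 windows was 7. Those of Slc38a5, Glul, Slc1a4, Slc1a1 and Glud1 held 10, 17, 21, 32 and 51. Of the 7 windows, those of these astrocytic glutamate transporters were the only ones below the median. For Slc1a2 the window is at a start inside the gene, and 6 of its 12 annotated transcripts begin more than 500 bases upstream of it, so it does not represent every promoter of that gene.

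The windows of Slc1a2, Slc1a3 and Glul are shown because these genes carry the uptake and the glutamine synthesis of astrocytes. Capitals mark any match on either strand to 4 motifs, which do not overlap one another in these windows. The core promoter motif TATAAA was in 13.6% of all windows and the upstream box CCAAT in 37.4%. The GC-rich box GGGCGG was in 35.7%, and AGAACA, a motif of the glucocorticoid receptor, in 19.0%. The positions are chr2:102706188-102706487 (plus strand) for Slc1a2, chr15:8710758-8711057 (minus strand) for Slc1a3 and chr1:153899679-153899978 (plus strand) for Glul.

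Glul: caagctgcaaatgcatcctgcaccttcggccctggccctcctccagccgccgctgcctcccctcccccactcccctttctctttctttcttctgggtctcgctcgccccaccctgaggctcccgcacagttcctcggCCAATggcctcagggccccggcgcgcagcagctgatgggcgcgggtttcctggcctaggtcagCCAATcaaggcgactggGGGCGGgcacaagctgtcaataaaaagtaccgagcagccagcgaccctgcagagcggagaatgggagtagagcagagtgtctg
Slc1a2: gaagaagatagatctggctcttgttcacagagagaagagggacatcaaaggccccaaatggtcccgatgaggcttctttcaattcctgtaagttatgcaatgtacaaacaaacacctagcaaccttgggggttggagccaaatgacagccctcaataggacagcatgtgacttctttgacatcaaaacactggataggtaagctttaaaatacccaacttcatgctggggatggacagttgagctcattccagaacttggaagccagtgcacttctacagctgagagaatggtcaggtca
Slc1a3: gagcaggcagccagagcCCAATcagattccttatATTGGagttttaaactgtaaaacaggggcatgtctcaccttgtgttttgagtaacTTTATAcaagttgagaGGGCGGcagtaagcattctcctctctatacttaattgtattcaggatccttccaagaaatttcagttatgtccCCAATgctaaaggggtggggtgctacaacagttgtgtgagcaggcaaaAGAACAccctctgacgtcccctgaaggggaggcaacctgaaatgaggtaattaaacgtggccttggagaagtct

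The window of Slc1a3 held a match to each of the 4 motifs, with CCAAT in 3 places. Its TATAAA match was on the other strand and far upstream of the start, and these letters alone do not show a core promoter element. The window of Glul held CCAAT in 2 places and GGGCGG in 1, and that of Slc1a2 held no match to the 4 motifs. Over the 7 member windows, GGGCGG was in 6, CCAAT in 3, TATAAA in 1 and AGAACA in 1. These matches describe the sequence and no binding was measured.

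The other genes of glutamate and glutamine metabolism were taken from a list of 46 genes grouped by role. Of these, 45 were matched in the table, and the pyruvate carboxylase gene Pc was not analysed here. A value of 10 or more was reached by 39 of the 45, 3 were listed at 0, and the median per-length level was 2.87. Of the 45, 19 lay above the median of detected genes.

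Gls2, which breaks glutamine down to glutamate and is known mainly from liver, had a value of 10 and a per-length level of 0.104.

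Of the 9 other SLC38 genes, 6 were detected and 5 lay above the median of detected genes. The highest by exon union was Slc38a10 at a per-length level of 24.7, while by coding length Slc38a6 (50.1) and Slc38a1 (49.1) were above it (48.4). Slc38a4 and Slc38a11 were listed at 0. Slc38a6 at 8.83, Slc38a2 at 5.92 and Slc38a7, with a value of 914, were also above Slc38a3 by each of the 3 lengths. Slc38a1 and Slc38a2 encode system A transporters, which take glutamine into cells. Slc38a3 was 1.41 times as high as Slc38a1 by exon union and 0.414 times as high by coding length, so the order of this pair turned with the length, while Slc38a2 was above Slc38a3 under each length.

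The cystine-glutamate exchanger, which releases glutamate from glia in return for cystine, is made of a light chain encoded by Slc7a11 and a heavy chain encoded by Slc3a2. Slc7a11 had a per-length level of 1.73 and Slc3a2 one of 81.1, which was above each of the 9 members by exon union, while by coding length Glul and Glud1 were above it. The heavy chain also pairs with other amino acid transporters.

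All 7 transaminase genes analysed were detected. Got2, the mitochondrial aspartate transaminase, was highest at a per-length level of 22.1 and Gpt, an alanine transaminase, lowest at 0.802. None reached Glul or Glud1. Among the 4 mitochondrial carriers of glutamate, Slc25a18 was highest at 40.1, and Slc25a22, the other dedicated glutamate carrier, was lowest by exon union at 1.495. By longest transcript and by coding length Slc25a13 was the lowest, at 2.35 and 3.61. Slc25a18 was 26.8 times as high as Slc25a22 by exon union and 8.62 times by coding length. It also exceeded each of the 5 SLC1 members.

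Genes of transmitter release and of GABA synthesis lay below the median of detected genes. Of the vesicular glutamate transporters, Slc17a8 was highest at a per-length level of 0.868, Slc17a7 was at 0.121 and Slc17a6 was listed at 0. Abat, which degrades GABA, had a per-length level of 2.88, and of the genes whose enzymes make GABA from glutamate, Gad2 was at 1.07 and Gad1 at 0.0617. The 6 amidotransferase genes, whose enzymes spend glutamine on other products, were all detected, from Gfpt1 at 2.29 to Ctps at 15.4 by exon union, and from Cad at 4.11 to Ctps at 28.7 by coding length.

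Regulators of transporter level or surface abundance were on the list because the study concerned SGK1, a kinase known to raise the surface abundance of several of these transporters. All 8 were detected, at a median per-length level of 7.87. Arl6ip5, whose product binds EAAC1 and reduces its activity, was highest by exon union at 53.7, and Sgk2 was lowest at 0.138. Sgk1 itself was at 45.2 by exon union, and by longest transcript (71.5 against 53.7) and coding length (140.9 against 137.3) it was above Arl6ip5. It was above each of the 5 SLC1 members under each length. The ubiquitin ligase gene Nedd4 was at 26.6 by exon union. Nedd4l, at 1.775, and Sgk3, at 1.944, were below the median of detected genes by exon union. By coding length Nedd4l stayed below it (above 46.3% of detected genes) and Sgk3 was above it (59.4%).

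**Figure D4:**
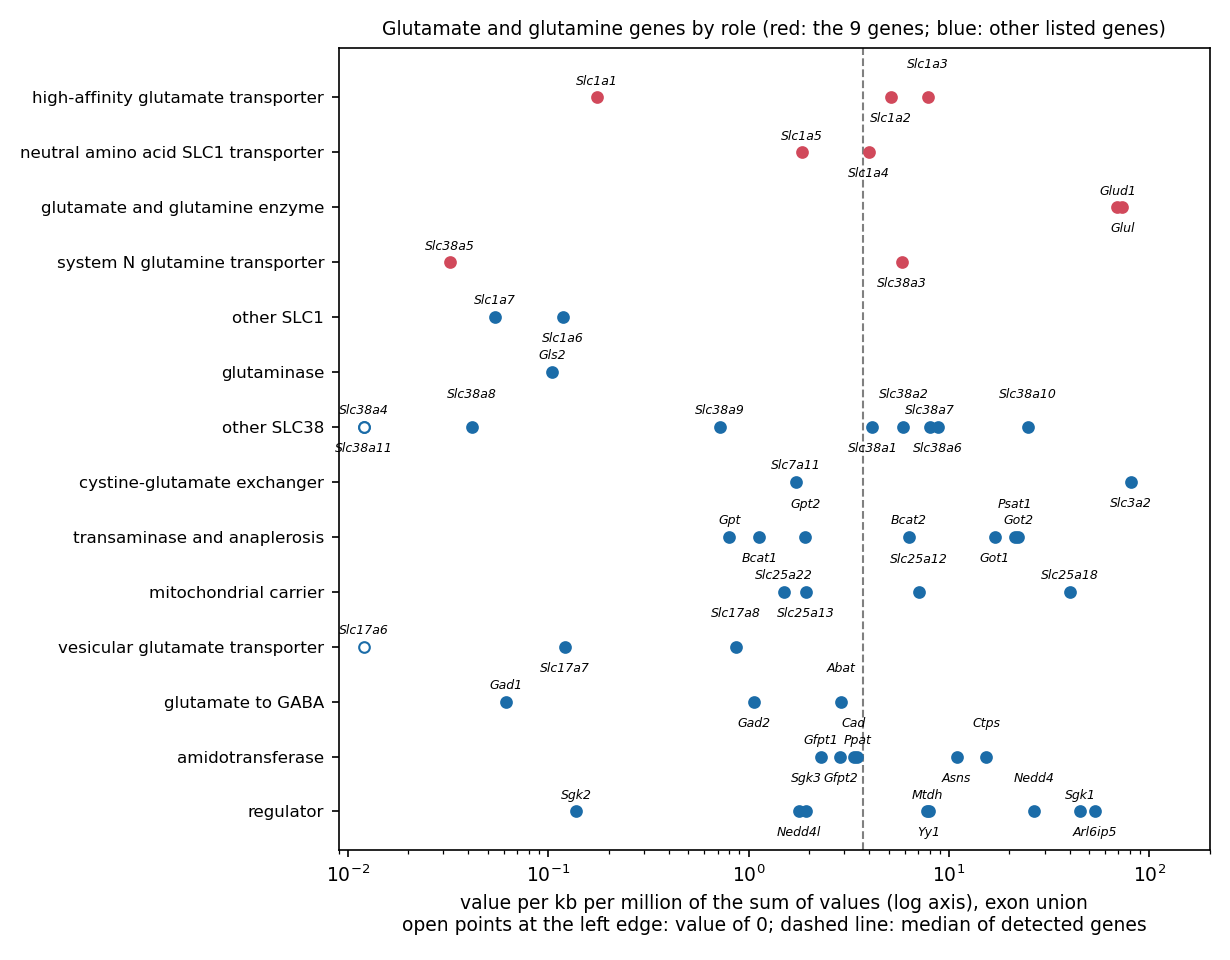
The x axis gives the per-length level (exon union, log axis) of the 9 genes in red and of the 45 other listed genes in blue, 1 row per role, with the median of detected genes as a dashed line and genes at 0 as open points at the left edge. Glul, Glud1 and Slc3a2 are farthest right, at 69.2 to 81.1, while the vesicular transporters, Gad1, Slc1a6, Slc1a7 and Slc38a5 are below 1.

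Markers of the cell types that the culture could hold were read beside the members. In such bulk RNA, fewer cells of a type and less RNA per cell cannot be told apart. Of 12 astrocyte markers, 11 were detected, all but Gjb6 with a value of 4. The median per-length level of all 12 was 24.8, from 0.0543 for Gjb6 to 148.1 for Gfap. All 12 microglia markers were detected, at a higher median of 184.3. The study describes its VM-glial cultures as mostly astrocytes with a smaller part of microglia. The marker medians do not give shares of cells. The 10 oligodendrocyte lineage markers had a median of 9.77 and the 6 fibroblast and mural markers one of 22.2. The 8 neuron markers had a median of 1.25, with Rbfox3 at 0.125 and Stmn2, the highest, at 24.6, which was above each SLC1 member. The 6 endothelial markers had a median of 0.282, with Tek listed at 0 and Flt1, the highest, at 6.52.

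By exon union, the only length used for the markers, the astrocytic transporters were low among the astrocyte markers of this library. Slc1a2 exceeded 2 of the 12 astrocyte markers (Gjb6 and Fgfr3) and Slc1a3 exceeded 3 (also Slc4a4), whereas Glul and Glud1 each exceeded 10, all but Gfap and Atp1b2. None of the 5 SLC1 members reached any of the 12 microglia markers by exon union. Undivided, Slc1a2 (1866) and Slc1a3 (1850) had values above those of P2ry12 (1218) and Tmem119 (984) but below those of the other microglia markers. Glul is also made by oligodendrocytes, and Slc1a3, Slc1a5 and Glud1 are not restricted to astrocytes, so these values cannot be assigned to a cell type. The part of each cell type in the members' levels was not tested.

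**Figure D5:**
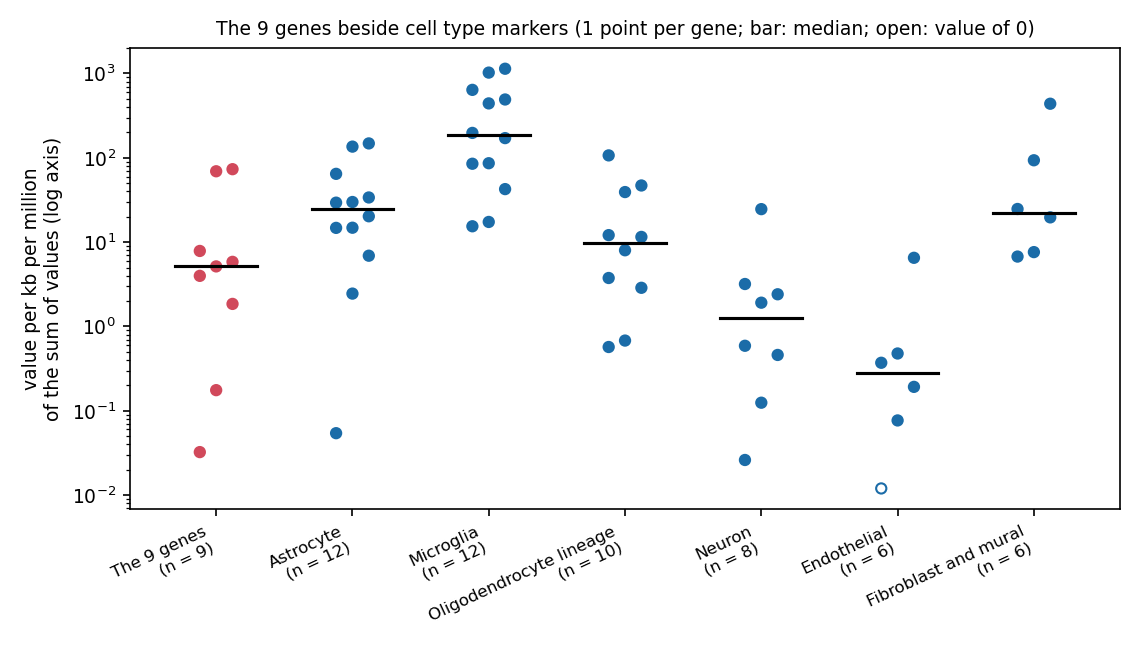
The y axis gives the per-length level (exon union, log axis) with 1 point per gene, for the 9 genes in red and 6 lists of cell type markers in blue, black bars giving medians and an open point a value of 0. The median of the 9 genes (5.15) lies below those of the astrocyte (24.8), microglia (184.3), oligodendrocyte lineage (9.77) and fibroblast and mural (22.2) markers and above those of the neuron (1.25) and endothelial (0.282) markers.

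With a single library, no likeness of pattern across samples could be computed between these genes and others.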

How the data were processed

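A single library was prepared (SMARTer mRNA kit) from Trizol-extracted total RNA of a control culture. The methods of the study describe quality trimming, mapping to GRCm38/mm10 by STAR, and counting over RefSeq exons by HTSeq-count. The submitters' processing notes name TopHat and edgeR instead, so the aligner is uncertain. Versions, strand setting, the handling of multi-mapped reads and the normalisation behind these values were not given in the sources used here. FPKM values, which the methods also mention, were not used here. The deposited values were whole numbers that the authors call normalised read counts, made by counting mapped reads per gene, and they were handled as a score. No count test, interval or detection floor was computed.

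Of 23282 rows, 22890 (98.3%) were matched by symbol, or through RefSeq synonyms, to GENCODE M21 (GRCm38), which is not the annotation the authors counted on. It gave 3 lengths per gene: the exon union, which includes retained introns, the longest protein-coding transcript and the longest coding sequence. Percentiles by exon union are the share of 15478 detected genes (value of 10 or more, with a length) below a gene. Undivided percentiles used all 15648 detected rows. Those by longest transcript or coding length used the detected rows that had that length. Coding sequences were aligned globally with Biopython 1.88 and shared transcripts were found with BLAST 2.17.0 (90% identity over 100 bases or more). Percentiles and identities were tested on simulated data. Scripts ran in Python 3.11.15 with pandas 2.3.3, numpy 2.4.6 and, for plots, matplotlib 3.10.9.

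The members and lists were chosen with earlier results of these data known. All 9 members were named. Other listed genes were named by rule if highest or lowest in their role, at 0, or above the members of the same role. Others named (Sgk1, Sgk3, Nedd4, Nedd4l, Slc17a7, Slc38a1, Gad2, Cad, Slc25a13 and single cell type markers) were picked after their values were seen. A further listed gene, and the ratio planned with it, is not reported here.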

Additional observations from a re-analysis of the deposited data

How the results depend on the processing

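The median percentile of the 9 members was 57.4 with exon-union lengths among detected genes. It was 50.8 with longest-transcript lengths, 61.4 with coding lengths, 63.8 without division, 63.3 among genes at 1 or more and 56.4 among protein-coding genes. Among genes at 100 or more it fell to the other side of the middle, at 45.1, as fewer low genes remained. The Slc1a3 to Slc1a2 ratio of 1.52 was 2.76 with longest-transcript lengths and 1.04 with coding lengths, and it reversed to 0.991 without division. Of the 9 members, 9 were at 1 or more, 8 at 3 or more, 7 at 100 or more and 4 at 1000 or more. Of all rows, 67.2% were at 10 or more and 21.5% at 1000 or more, and 5075 of 23282 were listed at 0. Shares of all rows at 3 or more and at 100 or more were not computed, so those 2 counts stand without a comparison. No result has a replicate, and the unknown depth leaves the precision of low values, such as those of Slc1a1 and Slc38a5, unknown.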
